A study of Mus musculus with 18 samples.

Results

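The genes described here are 10 members of the Wnt signalling pathway measured in the retinal pigment epithelium (RPE) of mice, a pigmented monolayer that supports the photoreceptors. They were taken by symbol from a table of 21859 genes: the ligand Wnt9a, the receptors Fzd4 and Fzd5, the secreted inhibitors Sfrp1, Sfrp5 and Dkk3, the feedback scaffold Axin2, and the nuclear effectors Ctnnb1, Lef1 and Tcf7l2. All 10 passed the filter on low counts, as did 15944 genes of the table. Axin2 and Wnt9a had been picked because they changed in these same libraries, so their values are given as a description with no test. The other 8 were tested across the whole table.

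Bulk RNA sequencing covered 18 libraries in 4 groups. Young (7 libraries) and Old (4 libraries) are RPE of young and aged mice for which no vector is named. Old control (3 libraries) is RPE of aged mice that received an adeno-associated virus carrying only the transactivator tTA (AAV2-tTA). Old OSK (4 libraries) received the same transactivator vector and, under the tTA-responsive promoter TRE, the reprogramming factors Oct4, Sox2 and Klf4 (AAV2-tTA;TRE-OSK). Strain, age in months, the promoter driving tTA, vector dose and time after injection are not given in the sources used here. No label says whether replicate libraries came from separate animals, so p-values measure the spread between these libraries.

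In the canonical Wnt pathway, a secreted ligand binds a Frizzled receptor and its co-receptor Lrp5 or Lrp6, which stops a cytoplasmic destruction complex from degrading β-catenin (Ctnnb1). Stabilised β-catenin enters the nucleus and acts with Lef1 and the Tcf proteins on target genes, among them Axin2, whose product is part of the destruction complex and feeds back on the signal. Secreted frizzled-related proteins (Sfrp) bind Wnt ligands outside the cell. In the eye the pathway is known for its part in RPE specification during development and in retinal vessel growth. In the mouse genome (GRCm38, GENCODE M21) Axin2 spans chr11:108920349-108950783 and Wnt9a chr11:59306928-59333552. Sfrp1 spans chr8:23411502-23449632, Sfrp5 chr19:42197971-42202252 and Fzd4 chr7:89404355-89413134.

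Promoter letters were read for the members whose levels are followed below and for one start site that holds a match. RefSeq (GRCm38.p6) promoters were found for 8 of the 10 members, with 13 start sites between them, and the 250 bases before each start were searched on both strands for the core letters that Tcf and Lef proteins bind. The forms searched were CTTTGAT, then CTTTGAA as a variant, then the form CTTTGTT, with the variants CTTTGTA and also CTTTGTG. Of 32851 mouse promoters of that length, 19.2% held at least 1 of these. Axin2 and Sfrp5 are shown as members whose age difference is described below (no promoter entry was matched for Sfrp1), and Tcf7l2 because its second start holds a match, in capitals.
Axin2, chr11:108920099-108920348, plus strand: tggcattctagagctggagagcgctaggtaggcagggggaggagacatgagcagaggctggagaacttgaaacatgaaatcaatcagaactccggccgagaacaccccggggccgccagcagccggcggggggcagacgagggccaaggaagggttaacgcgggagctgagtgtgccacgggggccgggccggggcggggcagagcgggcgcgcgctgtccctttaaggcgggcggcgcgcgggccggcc
Sfrp5, chr19:42202253-42202502, minus strand: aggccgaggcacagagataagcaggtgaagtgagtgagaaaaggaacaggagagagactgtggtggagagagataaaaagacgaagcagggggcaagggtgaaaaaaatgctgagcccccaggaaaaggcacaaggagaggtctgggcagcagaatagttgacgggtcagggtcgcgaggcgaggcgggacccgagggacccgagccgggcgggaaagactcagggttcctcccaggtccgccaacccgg
Tcf7l2, second start, chr19:55895071-55895320, plus strand: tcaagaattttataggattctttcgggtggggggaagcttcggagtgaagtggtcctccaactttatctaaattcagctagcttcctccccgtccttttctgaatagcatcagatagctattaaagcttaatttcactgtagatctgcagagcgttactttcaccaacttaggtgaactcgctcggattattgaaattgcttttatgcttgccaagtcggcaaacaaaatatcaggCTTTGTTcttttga
The CTTTGTT of Tcf7l2 lay 14 bases before the start. Of 4 Lef1 starts, the most downstream held CTTTGTA on the opposite strand, 147 bases before it. The other 11 start sites, those of Axin2, Sfrp5, Wnt9a, Fzd4, Fzd5 and Ctnnb1 among them, held none of these letters in this window. A match is a run of letters, not a measured binding site.

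Total counts ranged from 18104828 to 32348136 per library, so Axin2 had at least 468 counts in every library and Wnt9a at least 79. The 12 RPE markers (Rpe65, Best1, Ttr and others) summed to between 18350 and 68700 CPM (read counts scaled to a common library size, with TMM factors) across the 18 libraries, and no marker was at 0 in any group. Old replicate 4 and Old control replicate 2 stood apart from their groups: on the first principal component (46.5% of the variance) they scored 73.2 and 61.8, within the Old OSK range of 45.7 to 96.0, whereas no other Old or Old control library exceeded 21.8. The names of 6 libraries carry a letter M that no label explains (3 Young, 2 Old control, 1 Old OSK). These held 4040 to 5493 Y-linked counts against at most 93 in the other 12, so M went with male RNA. By these counts 3 of 7 Young and 0 of 4 Old libraries were male. The same held for 2 of 3 Old control and 1 of 4 Old OSK libraries, so sex was not balanced in the 3 comparisons. Values without the M libraries, or without those that stood apart, are given beside several of the results that they change. Fewer cells of a type and less RNA per cell cannot be told apart in such bulk samples.

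Per kilobase of exon, the members differed widely in level in Young RPE. Dkk3 stood highest at a mean of 334 CPM per kilobase, followed by Ctnnb1 at 116, Sfrp1 at 105, Sfrp5 at 66.8 and Fzd4 at 62.4. Axin2 (7.21), Fzd5 (3.08), Wnt9a (2.03) and Tcf7l2 (1.84) were one step lower, and Lef1 was barely present at 0.181. Over the Young libraries the ranges of Dkk3 and Ctnnb1 overlapped, as did those of Ctnnb1 and Sfrp1, Sfrp5 and Fzd4, Fzd5 and Wnt9a, and Wnt9a and Tcf7l2. Such ranges do not compare the genes within each library, so they do not decide whether these neighbours differ. The Young libraries thus held more transcripts per kilobase of Sfrp1, Sfrp5 and Dkk3 than of Wnt9a. Wnt9a was not the highest Wnt ligand in them, as Wnt5b stood at 3.26 and Wnt4 at 2.86. Which cells these transcripts came from was not tested.

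The first comparison asks which of these genes differ between aged and young RPE. Sfrp1 and Sfrp5, both secreted inhibitors, fell with age, to 0.653 and 0.553 times their Young level. Of the 8 tested members these 2 were called (edgeR's quasi-likelihood test, Benjamini-Hochberg adjusted p under 0.05), both lower, against 9.56% of all 15944 genes called in either direction and 4.16% called lower. No member was called higher, against 5.4% of all genes. Axin2 was also lower in Old, at 0.728 times its Young level, and the remaining 6 tested members did not pass the test. Markers of other cells moved with age as well: 8 of 10 macrophage markers were called higher, with summed levels of 497.5 to 686 CPM in Young and 750.1 to 1255 CPM in Old, and 2 of 12 RPE markers were called lower. Photoreceptor markers were higher in median without a call: 0 of 10 for rods (median log2 fold change 1.39, sums of 443.9 to 3175 CPM in Young and 2254 to 7589 CPM in Old) and 0 of 7 for cones (1.03, sums of 62.98 to 115.2 and 97.58 to 176.2 CPM). No marker of these lists was at 0 in any group. Their part in the values of the members was not tested.

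Sfrp1 encodes a soluble protein with a Frizzled-like domain. Its level in Young ran from 426 CPM through a median of 468 CPM to 477 CPM, and the 4 Old libraries had 339, 304.5, 269 and 283 CPM. Every Old library was below every Young library, which was the case in this direction for 5.61% of all genes. The mean was 458 ± 19.4 CPM in Young (SD, n = 7) and 299 ± 30.4 CPM in Old (SD, n = 4), which the fit put at a log2 fold change of -0.62 (SE 0.12, 95% interval -0.87 to -0.36, edgeR adjusted p = 0.006). In libraries without M the log2 fold change was -0.59 (edgeR adjusted p = 0.0193), and it was called in all 11 fits that each left out 1 library.

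Sfrp5, its close relative, ranged from 93.5 CPM through a median of 121 CPM to 181 CPM in Young. The Old libraries had 63.7, 82.1, 82.3 and 52.5 CPM. All 4 were again below all 7 Young libraries. The log2 fold change was -0.86 (SE 0.24, 95% interval -1.37 to -0.34, edgeR adjusted p = 0.039). This call was less firm: the 3 highest Young values belong to the libraries with M, and without the M libraries the log2 fold change was -0.57 (edgeR adjusted p = 0.092). It was called in 2 of the 11 fits that left out a library, with adjusted p between 0.0271 and 0.17.

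Axin2 is a widely used readout of canonical Wnt signalling. In Young it ran from 33.6 CPM through a median of 36.8 CPM to 50.3 CPM, and in Old it stood at 33.8, 29.7, 27.4 and 24.9 CPM. Old replicate 1 lay just above the lowest Young library, so the groups touched, and the other 3 Old libraries lay below all Young ones. Old control had 21.8, 27.2 and 32.1 CPM and Old OSK had 22.9, 19.45, 25.9 and 24.4 CPM, so that all 7 vector-treated libraries were below all 7 Young libraries. The fitted log2 difference of Old from Young was -0.46 (SE 0.14, 95% interval -0.75 to -0.17). It lay between -0.55 and -0.38 in the 21 alternative fits, which reuse the same libraries. Axin2 was picked for its change, so neither the interval, this range nor the gaps between groups test it.

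Ctnnb1, the transcript of β-catenin, had 604 ± 45.9 CPM in Young (SD, n = 7) and 502 ± 25.9 CPM in Old (SD, n = 4). Young ran from 511 through a median of 613 to 659 CPM, and Old stood at 467, 528, 500.5 and 513 CPM. Only Young replicate 7 fell within the Old range. The log2 fold change of -0.27 (SE 0.08) was not called (edgeR adjusted p = 0.0553), whereas it was called without Young replicate 7 (-0.30, edgeR adjusted p = 0.0305) and by DESeq2 (adjusted p = 0.0065).

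**Figure D1:**
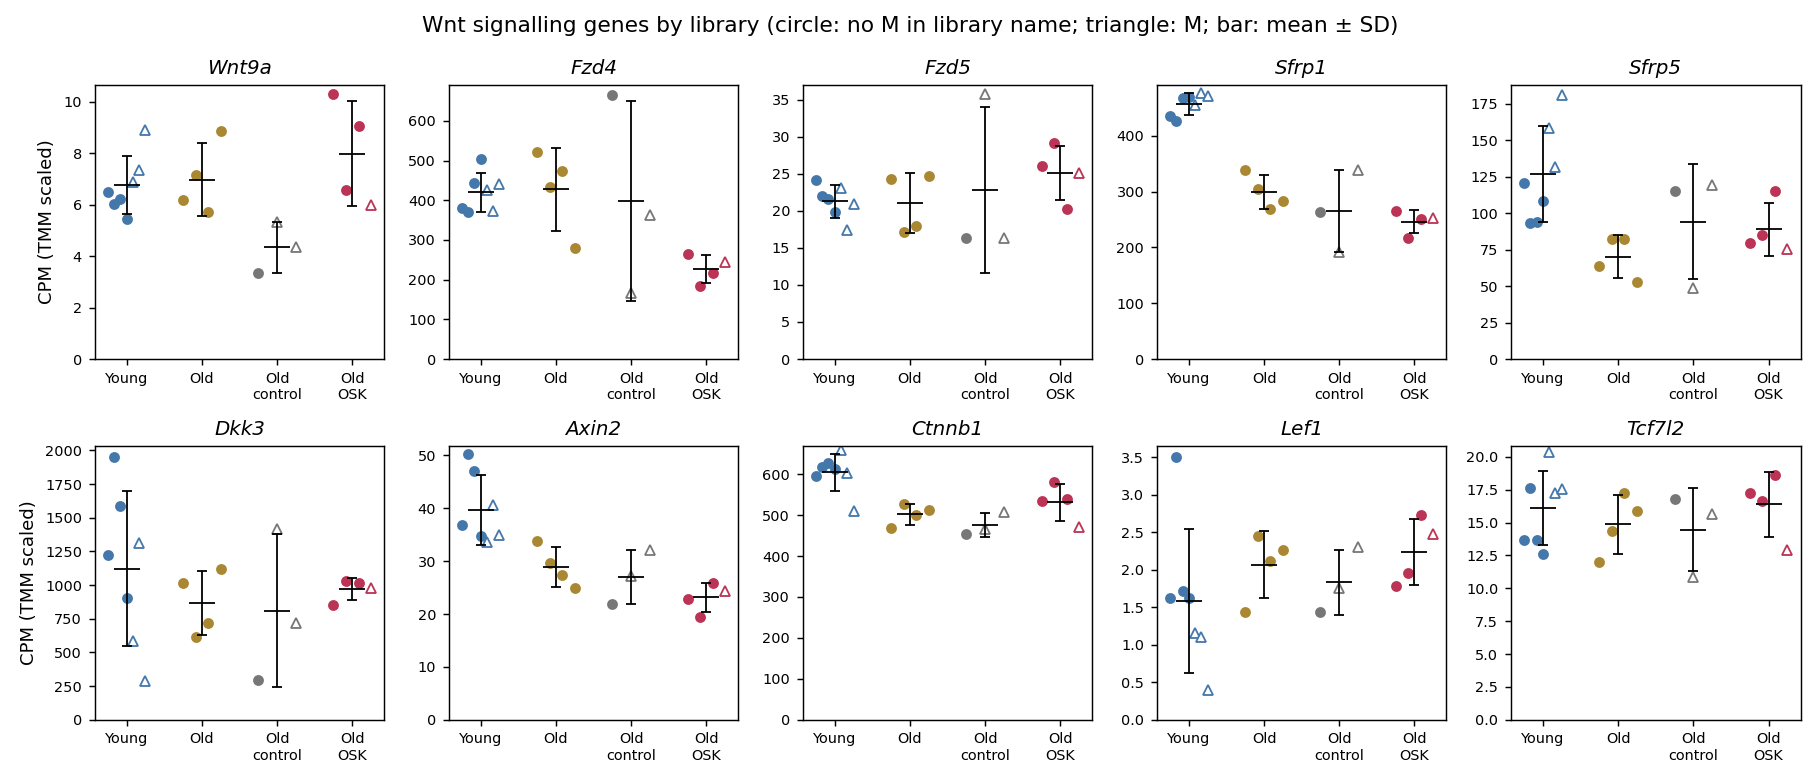
Level of each member in every library, in CPM (linear axes from 0), by group; circles are libraries without M in their name, triangles those with it, and the bar is the mean ± SD. Sfrp1 separates all 7 Young libraries (426 to 477 CPM) from the other groups, whose highest value is 339.5 CPM, whereas Dkk3 spreads from 291 to 1950 CPM within Young alone.

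The other members gave no call with age, with these values. Wnt9a had 6.76 ± 1.12 CPM in Young (SD, n = 7) and 6.98 ± 1.4 CPM in Old (SD, n = 4), a log2 difference of 0.05 (95% interval -0.35 to 0.45), given as a description. Fzd4, a receptor for Wnt ligands and for Norrin, had 420 ± 48.6 and 427 ± 105 CPM (0.03, 95% interval -0.51 to 0.56, edgeR adjusted p = 0.961), and Fzd5, a receptor needed in eye development, 21.3 ± 2.2 and 21.0 ± 4.08 CPM (-0.02, 95% interval -0.42 to 0.39, adjusted p = 0.966). The intervals leave room for changes of moderate size in either direction for both receptors. Tcf7l2 had 16.1 ± 2.82 and 14.9 ± 2.23 CPM (-0.11, edgeR adjusted p = 0.675). Lef1 was near the detection floor, with 7 to 109 counts per library, and its log2 fold change of 0.37 had an interval of -0.42 to 1.16.

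Dkk3, a divergent member of the Dickkopf family, had the highest mean per kilobase of the members and scattered widely. Young libraries ranged from 291 through a median of 1221 to 1950 CPM, and Old had 1013, 618, 719 and 1116 CPM. The Old values sat inside the Young spread (log2 fold change -0.37, SE 0.43, edgeR adjusted p = 0.599). The summed level of 7 fibroblast markers (Col1a1, Dcn and others) ranged from 177 to 858 CPM over the same Young libraries, with the lowest and the highest Dkk3 in the same libraries as the lowest and the highest marker sum. Of these 7 markers 1 was called lower with age, and no fibroblast marker was at 0 in any group. The part of these cells in the Dkk3 values was not tested.

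**Figure D2:**
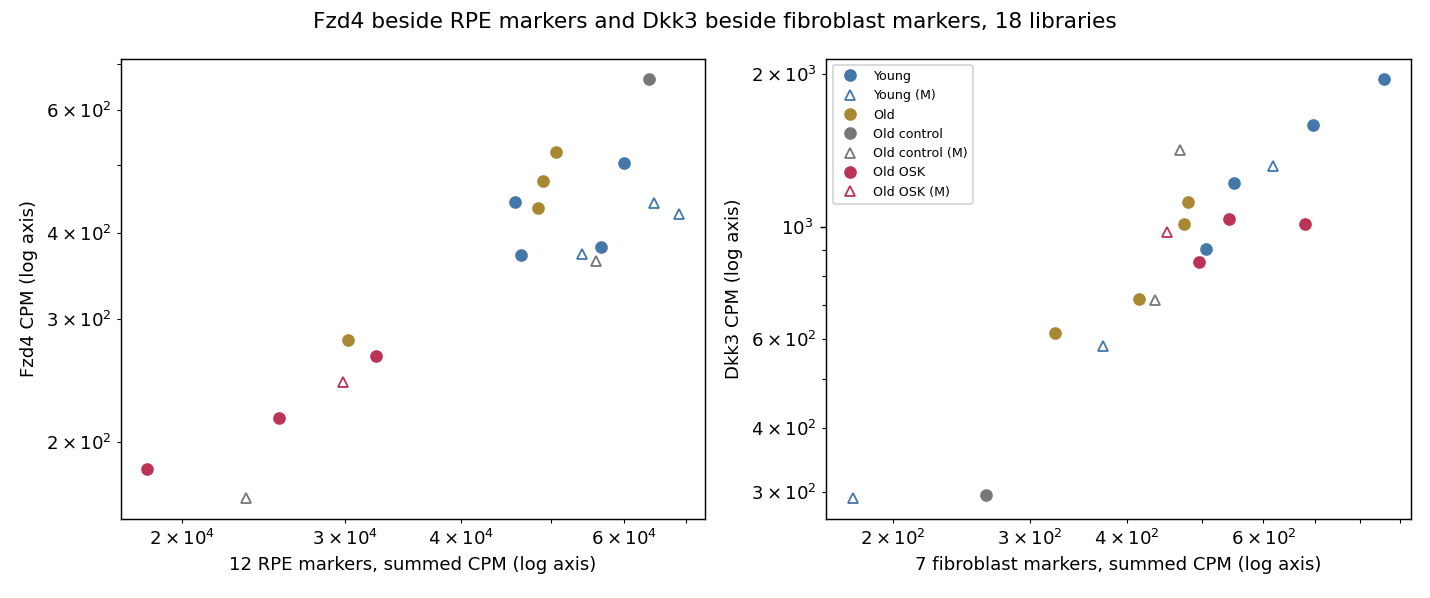
Fzd4 against the summed level of 12 RPE markers (left) and Dkk3 against that of 7 fibroblast markers (right), each point 1 of 18 libraries, both axes in CPM on log scales, colours for groups and open triangles for libraries with M. Libraries low in RPE markers are low in Fzd4 (Old OSK replicate 2: 18350 and 183 CPM), and Dkk3 is lowest where fibroblast markers are lowest (Young replicate 7: 177 and 291 CPM).

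The rest of the pathway was read from lists of 109 genes, of which 102 passed the filter. The ligands Wnt1, Wnt3 and Wnt8a, the R-spondin Rspo4 and the inhibitors Dkk1, Dkk4 and Sost did not pass it. Leaving out the 10 members, 12 of 92 pathway genes were called with age (13%), 4 higher and 8 lower, against 9.56% of all genes. Their median log2 fold change was -0.11, against 0.00 over all genes. With the 8 tested members the count was 14 of 100 (4 higher, 10 lower). It fell to 4 without Old replicate 4 and to 5 (0 higher, 5 lower) in libraries without M.

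Of 13 tested extracellular inhibitors 4 were called with age (30.8%, against 9.56% of all genes), 3 lower and 1 higher, with a list median of -0.37. The members Sfrp1 and Sfrp5 make up 2 of these 4. Of the others, Sostdc1 fell with age, from 322 ± 65.3 to 125 ± 28.3 CPM (log2 fold change -1.36, SE 0.24, edgeR adjusted p = 0.0037). Sostdc1 encodes a secreted antagonist of both Wnt and BMP signals. Its Old libraries (99.9 to 165 CPM) lay wholly below its Young libraries (249 to 403 CPM), as in 5.61% of all genes. Sfrp4, scarce in all groups, rose from 0.868 ± 0.232 to 2.15 ± 0.794 CPM (1.30, SE 0.34, adjusted p = 0.0289). The call of Sostdc1 held in all 11 fits without a library and that of Sfrp4 in 5 of them. Sfrp4 was not called in libraries without M (1.28, edgeR adjusted p = 0.0871).

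At the membrane, 2 of 16 receptors and co-receptors fell with age and none rose, a share (12.5%) near the 9.56% of all genes. Lrp6, the co-receptor through which the canonical signal passes, went from 177 ± 17.4 to 119 ± 15.8 CPM (log2 fold change -0.57, SE 0.13, edgeR adjusted p = 0.0152). Fzd8 went from 98.2 ± 12.3 to 56.4 ± 12.1 CPM (-0.80, SE 0.20, adjusted p = 0.022). For both, every Old library was below every Young one, as in 5.61% of all genes. Lgr4, a receptor for R-spondins, was the single call among 8 genes of receptor turnover (12.5%, again near the share of all genes). It had 94.4 ± 13.4 CPM in Young and 69.5 ± 4.57 CPM in Old (-0.44, SE 0.12, adjusted p = 0.0301).

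Leaving out Axin2, which was picked for its change, all 12 genes for Dishevelled and the destruction complex had a negative log2 fold change with age. Their median was -0.17, where 49.3% of all genes were positive with a median of 0.00. Of the 12, 1 was called (8.33%), a share near the 9.56% of all genes. This was Amer1, a scaffold that recruits the complex to the membrane (44.8 ± 5.33 to 28.5 ± 5.46 CPM, log2 fold change -0.65, SE 0.19, edgeR adjusted p = 0.0424), and its call held in 2 of 11 fits without a library. Of 14 nuclear effectors 3 were called (21.4%, against 9.56% of all genes). The Groucho-type corepressor Tle4 fell (104 ± 6.24 to 69.8 ± 13.3 CPM, -0.57, SE 0.10, adjusted p = 0.00448), while its relative Tle3 rose (43.2 ± 6.83 to 59.2 ± 4.36 CPM, 0.45, SE 0.13, adjusted p = 0.0354). The call of Tle4 held in all 11 fits without a library and that of Tle3 in 3 of them, with adjusted p up to 0.125. Ctnnbip1, which blocks the contact of β-catenin with Tcf proteins, fell from 40.5 ± 5.88 to 28.7 ± 2.26 CPM (-0.50, SE 0.12, adjusted p = 0.0185). Amer1 (-0.58, edgeR adjusted p = 0.056), Tle3 (0.36, adjusted p = 0.149) and Ctnnbip1 (-0.34, adjusted p = 0.146) were not called in libraries without M.

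Among 17 tested target genes other than Axin2, 1 was called lower and 1 higher with age (11.8%, near the 9.56% of all genes). Tnfrsf19, a receptor of the TNF family, fell from 70.3 ± 10.2 to 40.0 ± 9.71 CPM. Its log2 fold change was -0.81 (SE 0.18, edgeR adjusted p = 0.0146). The groups did not overlap, as in 5.61% of all genes in this direction. Tnfrsf19 was not called in libraries without M (-0.67, edgeR adjusted p = 0.0587). Myc, a growth regulator, rose from 1.25 ± 1.08 to 5.07 ± 3.1 CPM (2.00, SE 0.54, adjusted p = 0.0333), but Old replicate 1 (1.05 CPM) lay within the Young range, and the call held in 2 of 11 fits without a library. Myc was not called in libraries without M, where 0 pathway genes were called higher with age. The list median of -0.01 was close to that of all genes. None of the 10 planar cell polarity genes and neither of the secretion genes Porcn and Wls was called.

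**Figure D3:**
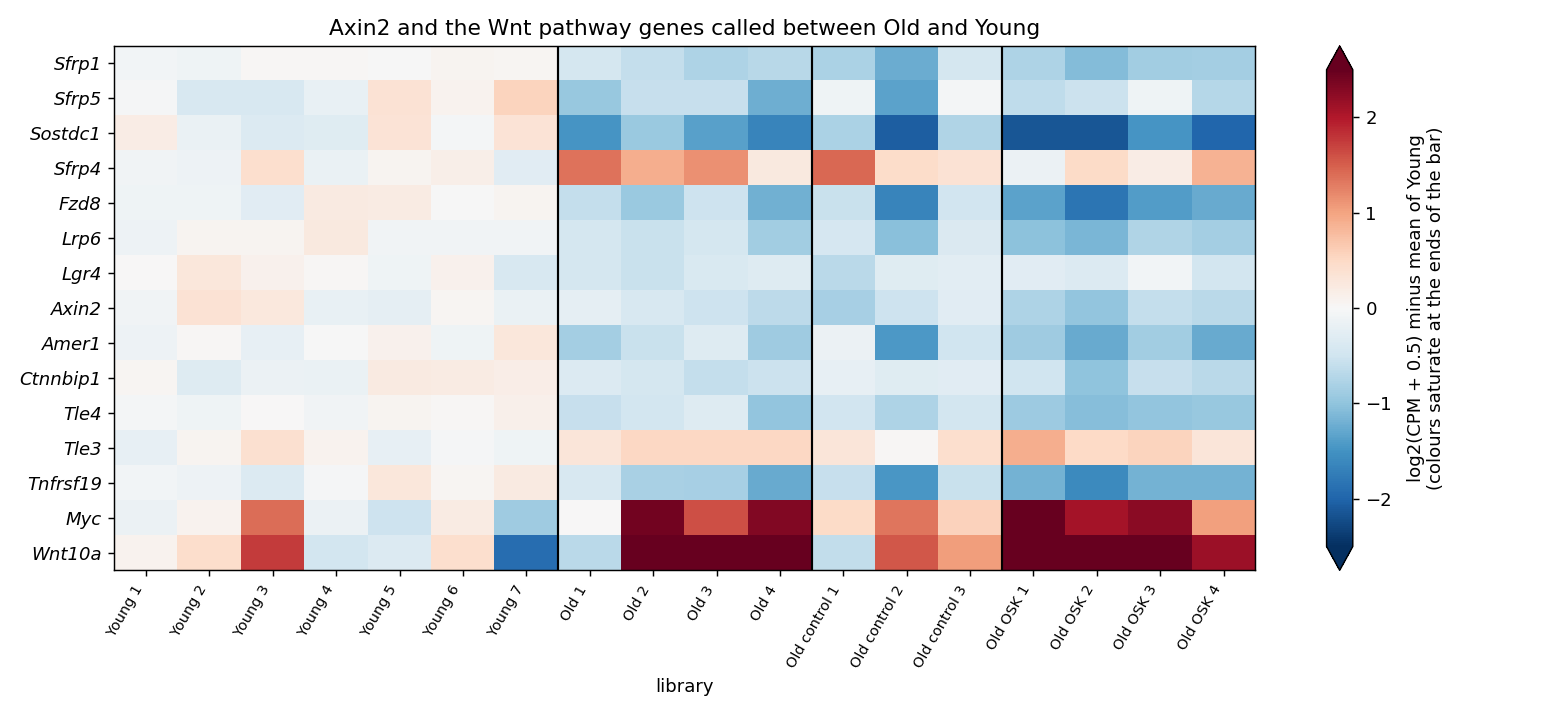
Each row is a pathway gene called between Old and Young, or Axin2, each column a library, and the colour is log2(CPM + 0.5) minus the mean of the Young libraries, saturating at the ends of the bar. Sostdc1, Lrp6, Fzd8, Tle4 and Tnfrsf19 are blue in every Old, Old control and Old OSK library, and Myc and Wnt10a are red in Old replicates 2, 3 and 4 but not in Old replicate 1.

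The second comparison asks what OSK adds over the transactivator vector alone in aged RPE. None of the 8 tested members was called by edgeR (1 at an unadjusted p under 0.05), where 0.728% of all genes were, and none separated the groups, where 12.4% of all genes did. Among 100 pathway genes other than Axin2 and Wnt9a edgeR called 0 as well, with 31 at an unadjusted p under 0.05 (4194 of all 15944 genes), while DESeq2 called 13 (10 higher, 3 lower) and edgeR on the equally numbered libraries, with the replicate number as a block, called 3 (Wnt4, Celsr1 and Lgr6, all higher). The same libraries without the block gave 6 (all higher). Single libraries decided this count: it was 17 without Old control replicate 2 (3 higher, 14 lower) and 11 without Old OSK replicate 4 (7 higher, 4 lower). Of all genes, 116 were called, and in the equally numbered libraries 461 with the block and 990 without it. Among the 10 members, the fitted differences farthest from 0 were those of Wnt9a (0.87, picked for its change) and Fzd4 (-0.81).

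Wnt9a, the ligand picked for its change, stood at 10.3, 6.57, 9.06 and 5.99 CPM with OSK, whereas the vector-only libraries had 3.35, 5.31 and 4.365 CPM. Every Old OSK library was above every Old control library, as in 6.55% of all genes. Old control was also the lowest of the 4 groups. Its 3 libraries lay below all Old libraries (6.18, 7.16, 5.705 and 8.88 CPM), as in 0.928% of all genes. They also lay below all Young libraries (5.43 to 8.89 CPM). The fitted log2 difference was 0.87 (SE 0.24, 95% interval 0.38 to 1.37) for Old OSK against Old control and -0.68 (SE 0.24, 95% interval -1.18 to -0.19) for Old control against Old. Both differences use the same 3 Old control libraries. Wnt9a was picked for its change, so neither these intervals nor the gaps between the groups test it. Old OSK (7.98 ± 2.05 CPM, SD, n = 4) overlapped with Old and with Young. Within libraries without M the difference between the vector groups was 1.36, and within those with M it was 0.34, with 1 library in 1 of the groups each time.

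Fzd4 had 266, 183, 216 and 244 CPM with OSK, and the Old control libraries had 664.5, 166 and 364 CPM. Old control replicate 2, one of the libraries that stood apart, was below all Old OSK libraries, and the other 2 were above them. The log2 fold change was -0.81 (SE 0.31, 95% interval -1.46 to -0.16) and not called (edgeR adjusted p = 0.123). Leaving out Old control replicate 2 gave -1.20, which was called (edgeR adjusted p = 0.00699), and leaving out Old control replicate 1 gave -0.22 (edgeR adjusted p = 0.718). In libraries without M, with a single Old control library left, Fzd4 was called (-1.59, edgeR adjusted p = 0.0277), and in those with M, with a single Old OSK library, the log2 fold change was -0.10 (adjusted p = 1). Old control replicate 2 also had the highest rod marker sum of all libraries, at 18590 CPM against 3661 and 1772 CPM in the other Old control libraries, and the part of photoreceptor RNA in these values was not tested.

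The RPE markers varied beside Fzd4. Their sum was 32360, 18350, 25450 and 29870 CPM with OSK, against 63810, 23450 and 55890 CPM with the vector alone, and in Old replicate 4, the Old library lowest in Fzd4 (279.7 CPM), it was 30180 CPM. None of the 12 markers was called between the vector groups, and their median log2 fold change was -0.76. Whether the share of RPE cells sets the Fzd4 level was not tested.

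Axin2 had a lower mean in Old OSK than in Old control. It was 23.2 ± 2.77 CPM (SD, n = 4) against 27.0 ± 5.14 CPM in Old control (SD, n = 3), a fitted log2 difference of -0.22 (SE 0.16, 95% interval -0.57 to 0.13), and the groups overlapped. In libraries without M, with a single Old control library left, the difference was 0.06. Sfrp1 had 266, 216.5, 251 and 252 CPM with OSK, against 264, 193 and 339.5 CPM (log2 fold change -0.11, 95% interval -0.41 to 0.19, edgeR adjusted p = 0.694). Sfrp5 had 88.8 ± 18.1 and 94.3 ± 39.5 CPM (-0.09, 95% interval -0.69 to 0.52, adjusted p = 0.892). The 2 inhibitors that fell with age therefore gave no call with OSK, and the intervals bound a rise at 0.19 for Sfrp1 and 0.52 for Sfrp5 on the log2 scale.

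For Ctnnb1, Old OSK had 534.5, 581, 539 and 469.9 CPM and Old control 454, 466 and 508.5 CPM (log2 fold change 0.16, 95% interval -0.06 to 0.37, edgeR adjusted p = 0.353). Fzd5 had 26.0, 29.1, 20.3 and 25.1 CPM against 16.3, 35.8 and 16.4 CPM (0.14, adjusted p = 0.775), where the outlying 35.8 CPM is Old control replicate 2. Without that library the log2 fold change of Fzd5 was 0.59 and called (edgeR adjusted p = 0.0336). Tcf7l2 (0.18, adjusted p = 0.61), Lef1 (0.29, adjusted p = 0.762) and Dkk3 (0.26, adjusted p = 0.812) differed by less than their spread. In libraries without M, with a single Old control library left, Dkk3 was called (1.71, adjusted p = 0.0456).

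**Figure D4:**
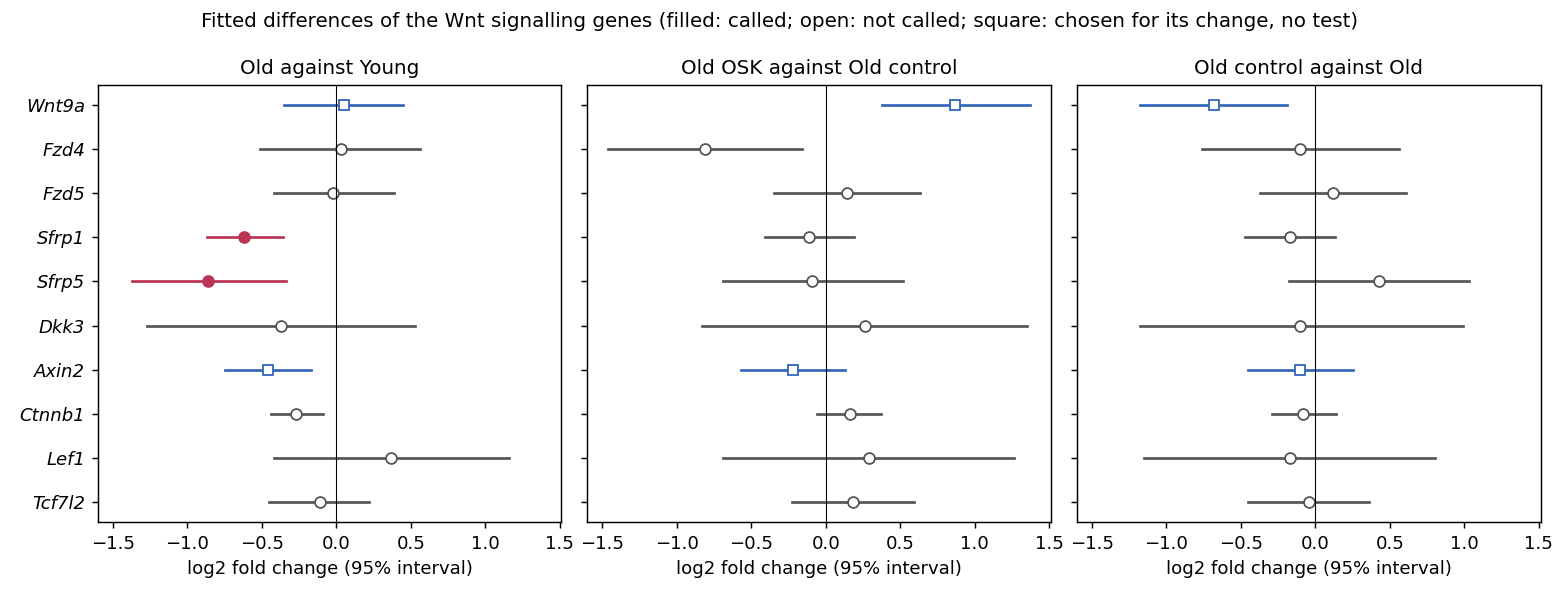
Fitted log2 fold changes of the 10 members with 95% intervals (horizontal axis) in the 3 comparisons; filled red points passed the test over all genes, open circles did not, and squares are Axin2 and Wnt9a, picked for their change and not tested. Only Sfrp1 (-0.62) and Sfrp5 (-0.86) in Old against Young are filled. Wnt9a stands at 0.87 with OSK and at -0.68 for Old control against Old, and its intervals are a description, not a test.

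Wnt9a was not the only ligand with a positive difference in Old OSK. Of the 15 other tested Wnt ligands, Wnt7a and Wnt10b would not pass the filter on low counts without the Old OSK libraries and are left out of the counts that follow. Of the remaining 13, 12 had a positive log2 fold change, with a median of 2.17, where 46.3% of the 15564 genes that pass without Old OSK were positive with a median of -0.04. edgeR over all libraries called none of the 13, while with the replicate number as a block it called Wnt4. In 3 of them (Wnt6, Wnt10a and Wnt11) every Old OSK library was above every Old control library, as in 6.25% of those 15564 genes and 6.55% of all tested genes. The median of the 13 was 3.28 in libraries without M, with a single Old control library left. In those with M, with a single Old OSK library, it was 0.20.

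Wnt4, the ligand with the highest level per kilobase in Old OSK (25.6 CPM per kilobase), and Wnt7b (5.53) were chosen for display after their values were seen. Wnt4 had 163.5, 124, 118 and 23.5 CPM with OSK, against 9.54, 28.4 and 17.6 CPM in the vector-only libraries (log2 fold change 2.53, SE 0.90, edgeR adjusted p = 0.108). In the 6 equally numbered libraries with the replicate number as a block, Wnt4 was called (2.97, SE 0.41, edgeR adjusted p = 0.0468), a fit without Old OSK replicate 4. All Old OSK libraries of that fit lack M, Old control replicates 2 and 3 carry it, and the pairing was not established. Wnt7b had 41.9, 27.5, 31.0 and 7.97 CPM against 2.63, 8.49 and 6.87 CPM (2.17, SE 0.87, adjusted p = 0.136). In both genes Old OSK replicate 4, the one with M, was far below the other 3 and within the Old control range. The same ligands were high in Old replicate 4 (Wnt4 113.9 CPM, Wnt7b 35.2 CPM) and low in Old replicate 1 (5.03 and 1.87 CPM).

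A list of 10 surface epithelium markers, keratins Krt5, Krt14, Krt12 and others of the cornea and conjunctiva, was drawn up only with the data in view. Its sum was 30460, 21090, 19590 and 3947 CPM with OSK, 1389, 5406 and 3260 CPM with the vector alone, 1036, 10040, 5389 and 21520 CPM in Old, and 212 to 6330 CPM in Young. The marker sum was thus highest and lowest in the same Old OSK and Old libraries as Wnt4. Of the 10 markers 3 were called higher with age and 0 with OSK, their median log2 fold change was 2.30 and 2.35, and none was at 0 in any group. Their part in the ligand values was not tested.

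**Figure D5:**
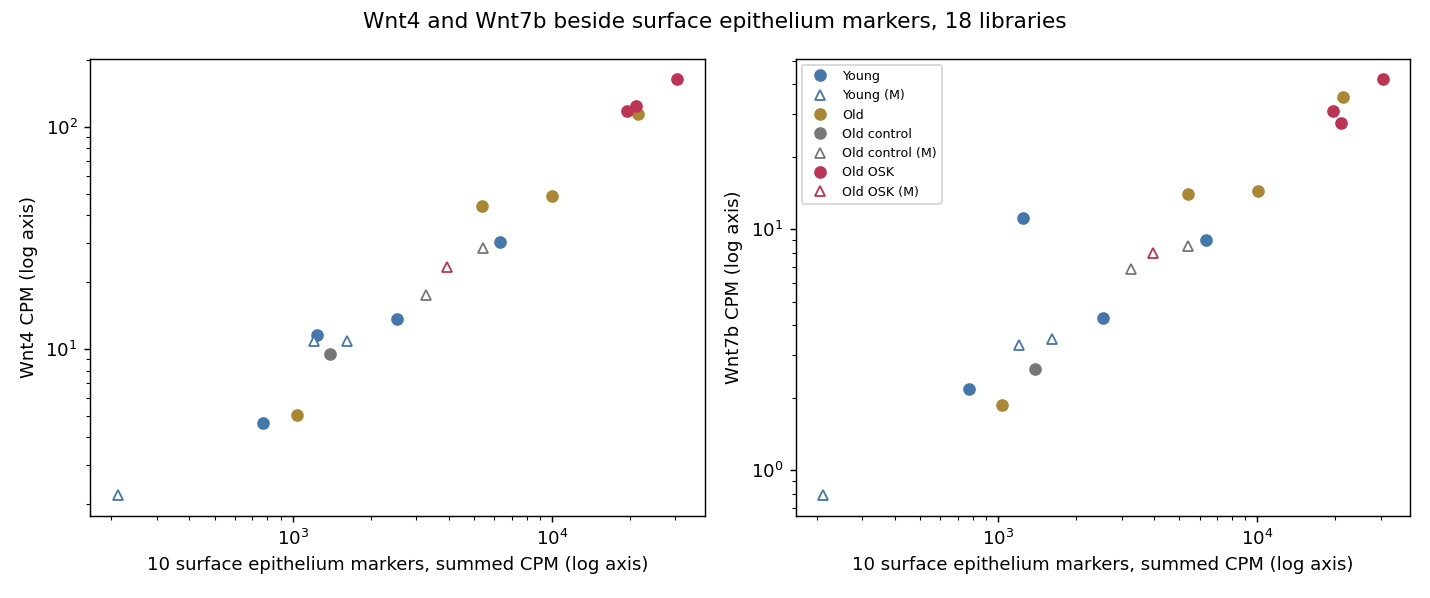
Wnt4 (left) and Wnt7b (right) against the summed level of 10 surface epithelium markers, each point 1 of 18 libraries, all axes in CPM on log scales, colours for groups and open triangles for libraries with M. Old OSK replicates 1, 2 and 3 and Old replicate 4 lie together at the top right (Wnt4 113.9 to 163.5 CPM), and Old OSK replicate 4 (23.5 CPM) lies among the Old control libraries.

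Wnt10a was the single ligand called with age, at 1.89 ± 1.88 CPM in Young and 11.2 ± 7.57 CPM in Old (log2 fold change 2.56, edgeR adjusted p = 0.0471). Old had 0.67, 12.5, 13.1 and 18.7 CPM, so that Old replicate 1, which was also lowest in the epithelial markers, lay within the Young range of 0 to 5.83 CPM. The call held in 2 of 11 fits without a library, and Wnt10a was not called in libraries without M. With OSK, Wnt10a had 18.4, 15.5, 23.7 and 7.72 CPM against 0.721, 5.04 and 3.37 CPM in Old control (2.41, adjusted p = 0.154).

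The third comparison, Old control against Old, asks what the transactivator vector alone changes. edgeR called 0% of all genes (596 at an unadjusted p under 0.05) and 0 of the 8 tested members (0 at an unadjusted p under 0.05), with log2 fold changes from -0.17 to 0.43 and a lowest adjusted p of 0.9. None of these 8 separated the groups in either direction. Of all genes, 0.928% did with Old control lower, and the share with Old control higher is not given here. Sfrp5 had the highest of these log2 fold changes, at 115, 48.7 and 119 CPM in Old control, where 2 libraries lay above all Old ones and replicate 2 below them (0.43, SE 0.29). Axin2 differed by -0.10 (SE 0.17), and its 3 libraries ran from below the lowest Old library to just under the highest.

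Finally, the genes whose pattern was most like that of the picked members were ranked by Pearson's r of log2 CPM over all 18 libraries, among the 10225 genes whose mean log2 CPM reached 3. The 18 libraries include the group differences described above, so these values describe likeness only. For Axin2 these were Tenm4 (r = 0.95, Spearman's rho = 0.95), Fbn1 (0.93), Slc6a17, Mfn1 and Gpr180 (0.92 each). Tenm4, a teneurin adhesion protein, stood at 176 ± 30.5 CPM in Young, 127 ± 14 in Old, 119 ± 4.75 in Old control and 100.3 ± 7.54 in Old OSK, the same order of groups as Axin2. For Wnt9a they were Samd10 (r = 0.82, rho = 0.79), Mid1ip1 (0.80), Kit (0.79), Afdn (0.79) and Frk (0.78). Kit, a receptor tyrosine kinase, had its lowest mean in Old control (23.9 ± 3.83 CPM) and its highest in Old OSK (47.4 ± 19.2 CPM), as Wnt9a did. These 2 groups overlapped for Kit. It is 1 of 4 melanocyte markers, whose sum did not follow this order, with medians of 318.2 CPM in Old control and 291.2 CPM in Old OSK.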

How the data were processed

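The 18 libraries came as a single table of raw read counts, which the authors deposited. Per the labels' protocols, polyA RNA was taken up in TRIzol, amplified as full-length cDNA (SMART-Seq v4) and made into Nextera XT libraries, a procedure that does not mark strand. The submitters' processing notes list STAR 2.7.1a and featureCounts 1.6.2, and mouse and human builds with no role. The annotation and strand setting are not given in the sources used here. Every column matched a library title, and every row named a gene.

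Groups came from the titles. Counts were filtered with filterByExpr (minimum count 10, minimum total 15), scaled by TMM and fitted over all 18 libraries with 4 group means in edgeR 4.0.16 (glmQLFit, glmQLFTest, R 4.3.3). P-values were adjusted by Benjamini-Hochberg over 15944 genes, and a gene is called at an adjusted p under 0.05. The method was tested on simulated counts drawn independently for each library, without outlying libraries. That setting does not cover the effects of single libraries described above. CPM are TMM-scaled, and levels per kilobase use union exon lengths of GENCODE M21 (GRCm38), which may differ from the authors' annotation. Standard errors are the log2 fold change over the root of F.

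The members and gene lists were chosen with earlier results of these data known. Named pathway genes are, per list and comparison, up to 3 called with the lowest p. Counts over the pathway in the report leave out Axin2 and Wnt9a. The surface epithelium list, the ligand counts without genes that fail the filter once Old OSK is left out, the fits within libraries with and without M, and the fit without Old replicate 4 and Old control replicate 2 were added after seeing the data. Other alternatives were DESeq2's size factors, no low-count filter, a minimum mean of 50 counts, DESeq2 1.42.0, the 2 groups alone, M as a covariate, a replicate block and leaving out each library.

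Replicates of a group differed beyond counting error (the lowest chi-square per gene was 21.2). Between Old OSK and Old control, deviations from the group means of libraries with the same number correlated at r = 0.103, 0.421 and 0.339 across genes. All were above 0.1, so the numbers were taken to pair that comparison, from this check only. Libraries with unlike numbers were not compared, and Old control against Old, taken as unpaired, gave 0.197, -0.189 and 0.359. The check therefore cannot decide whether the libraries are paired. Numbers 2 and 3 join an Old control library with M to an Old OSK library without it. In the other comparisons the numbers were not taken to pair the libraries.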

Additional observations from a re-analysis of the deposited data

Results flagged for a closer look

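In the groups of 4 or 7 libraries, 1 library of a group lay far from the others in 7 of 66 cases tested over 22 named genes, where chance alone gives about 1 in 20. Among the members these were Ctnnb1 in Young replicate 7, low at 510.7 CPM, and Lef1 in Young replicate 2, high at 3.501 CPM. Young replicate 3 was high in Wnt10a (5.829 CPM), Tle3 (56.58 CPM) and Myc (3.587 CPM), and it had the highest surface epithelium marker sum of the Young libraries (6330 CPM). Tle3 was low in Old replicate 1 (52.68 CPM), and Tnfrsf19 was low in Old OSK replicate 2 (22.91 CPM), the library with the lowest RPE marker sum (18350 CPM).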

How the results depend on the processing

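Of 1032 recomputed values, 789 were classed as the same, 116 lost a call, 8 gained one, 49 changed sign and 70 moved. Tested genes were the same if they kept their direction and their side of the threshold, and counts if within 1.5 times. Axin2, Wnt9a and the ligand medians have no threshold here. They were the same if they shifted by less than the SD within groups, whatever their sign. The cause was not tested except where an alternative holds fewer libraries. With age, 1524 genes were called, and 2452 by DESeq2 (1525 higher, 927 lower), 600 with M as a covariate (315 higher, 285 lower), 191 in the 8 equally numbered libraries, 445 in libraries without M, 622 without both outlying libraries and 393 to 2140 without 1 library each. The lowest count is without Old replicate 4. Pathway counts here include Axin2 and Wnt9a, which were picked for their change. Of the pathway genes, 15 were called with age (14 without Axin2), and 6 with M as a covariate, 3 in the equally numbered libraries, 5 without M, 8 without both outlying libraries and 4 to 18 without 1 library each. With the replicate block, 0 genes and 0 pathway genes were called with age. With OSK, 116 genes were called, and 1583 by DESeq2 (989 higher, 594 lower), 2 in the 2 groups alone, 58 with M as a covariate, 990 in the paired libraries unblocked, 1347 without M, 0 with M alone, 3729 without both outlying libraries and 13 to 2881 without 1 library each. The highest is without Old control replicate 2, and without Old OSK replicate 4 it was 1738. Pathway genes called with OSK, 0 at first, were 14 by DESeq2 (13 without Wnt9a), 6 in the paired libraries unblocked, 18 without M, 18 without both outlying libraries and 0 to 18 without 1 library each (18 without Old control replicate 2, 12 without Old OSK replicate 4). With the replicate block 461 genes (381 higher, 80 lower) and 3 pathway genes (Wnt4, Celsr1 and Lgr6, all higher) were called with OSK, and 0 members. Old control against Old gave 0 calls in every fit run.

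None of the 49 sign changes was called. With age they were Fzd5 (0.02 at a mean of 50 counts, 0.01 in the 2 groups alone, 0.02 with M as a covariate, -0.11 to 0.07 without 1 library), Fzd4 (-0.10 with M as a covariate, -0.01 with the replicate block, -0.08 to 0.18 without 1 library), Tcf7l2 (0.05 with the block, 0.05 unblocked, 0.05 without M) and Lef1 (-0.03 unblocked, -0.03 without M). With OSK they were Sfrp5 (0.07 with the block), Ctnnb1 (-0.02), Tcf7l2 (-0.01), Dkk3 (-0.09) and Fzd5 (-0.02) in libraries with M, and Tcf7l2 (-0.02) without both outlying libraries. Without 1 library the ranges with OSK were -0.02 to 0.30 for Tcf7l2, -0.32 to 0.11 for Sfrp1, -0.43 to 0.12 for Sfrp5, -0.14 to 0.91 for Dkk3 and -0.05 to 0.59 for Fzd5. For Old control against Old they were Lef1 (0.20), Dkk3 (0.11) and Fzd4 (0.03) with M as a covariate, Dkk3 (0.03) unblocked, Tcf7l2 (0.18), Fzd4 (0.64) and Fzd5 (-0.36) without M, and Tcf7l2 (0.16), Fzd4 (0.10) and Fzd5 (-0.28) without both outlying libraries. Without 1 library these ranged from -0.17 to 0.13 for Tcf7l2, -0.39 to 0.02 for Sfrp1, -0.77 to 0.30 for Dkk3, -0.69 to 0.27 for Fzd4 and -0.36 to 0.31 for Fzd5. The 49 leave out Axin2 and Wnt9a. With age, Wnt9a was negative in 2 of 21 alternative fits. Axin2 reached 0.06 with OSK and 0.03 for Old control against Old. Depth limits Lef1 and the scarcer ligands.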
